A study of Mus musculus with 2 samples.

Results

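The insulin genes, the granins and the enzymes that process prohormones were followed in a list of RNA sites enriched by an antibody against N6-methyladenosine (m6A) in mouse pancreatic islets. They were chosen by name as 10 genes, Ins1, Ins2, Chga, Chgb, Scg2, Scg3, Scg5, Pcsk1, Pcsk2 and Cpe, out of 21900 protein-coding genes of the annotation. Every site whose gene name or gene identifier was one of them was taken, which gave 5 of the 8987 sites in the list, on 3 of the 10 genes. No site carried an older synonym of a member as its name.

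The study is MeRIP-seq, in which fragmented RNA is pulled down with an m6A antibody and sequenced beside RNA that was not pulled down. The pulled-down library (the immunoprecipitate) and the input library both came from whole islets of 129sv mice at 2 weeks of age, with no genotype or treatment named for either. There was 1 library of each, so no value below has a replicate, an error between samples or a test of its own, and the depth of both libraries is unknown here. The sources used here do not say how many mice were pooled.

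Beta cells make insulin as a preprohormone that is folded, sorted into dense-core granules and cut there. Granins are acidic proteins that condense with the hormone and help to form the granule. The convertases Pcsk1 and Pcsk2 cut after pairs of basic residues, and carboxypeptidase E (Cpe) trims the basic residues that are left. Scg5, also called 7B2, is a chaperone and inhibitor of Pcsk2. m6A is deposited on many messenger RNAs and is read by proteins that affect their splicing, translation and decay.

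Of the 10 genes, 3 had a site: the granins Chga and Chgb, and Scg5. Ins1, Ins2, Scg2, Scg3, Pcsk1, Pcsk2 and Cpe were without a listed site. Among all protein-coding genes of the annotation 22.2% had at least 1 site, so 3 of 10 lies near that share and is not a result about these genes. This share, and those like it below, count every annotated gene, whether or not its RNA was present in the islets. The strongest site of each of the 3 genes had a large fold within the list. These folds were 27.48 for Chga, 21.38 for Chgb and 18.1 for Scg5, with a median of 21.38. The median strongest fold over the 4953 genes with a site was 8.1. The other Chgb sites had folds of 8.83 and 9.68, and by median fold Chgb lay at percentile 76.2 of genes. The fold, from the authors' deposited table, is the immunoprecipitate over the background that the peak caller expects from the input, on a linear scale. A list of sites holds no RNA level, so a gene without a site is not thereby unmethylated, and in bulk islets fewer cells of a type and less RNA per cell cannot be told apart.

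The sequence under the strongest Chgb score is shown because that site began outside the annotated gene. The site covered 389 bases at chr2:132781394-132781782 (GRCm38, plus strand). Of these, 248 bases lay before the first base of Chgb in the RefSeq annotation and 141 bases lay inside the gene. The 248 bases, chr2:132781394-132781641, are part of the RefSeq promoter window of GRCm38.p6 and read 5′ to 3′ on the strand of the gene as below. Capitals mark TGACGTCA, the palindromic cAMP response element, and GGAC, the core of the usual m6A motif, on the strand of the gene.
Chgb upstream part: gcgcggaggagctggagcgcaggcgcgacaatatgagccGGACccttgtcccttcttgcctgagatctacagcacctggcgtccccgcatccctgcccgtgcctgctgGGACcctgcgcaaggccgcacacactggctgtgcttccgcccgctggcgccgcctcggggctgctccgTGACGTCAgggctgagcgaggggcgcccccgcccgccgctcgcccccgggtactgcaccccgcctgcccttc

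These 248 bases were 73.0% G and C. The whole 250 bases before the Chgb start were 72.8% G and C, at percentile 94.1 of 32851 RefSeq windows, whose median was 52.4%. The letters GGAC occurred 2 times on the gene strand, starting 209 and 140 bases before the start. GGAC was found on the gene strand of 65.6% of all windows of 300 bases, and the longer GGACT, found in 26.1% of all windows, was not in the Chgb window. These matches describe letters and do not place a methylated base.

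TGACGTCA was chosen after the sites were seen, and the windows were not matched for G and C, so its shares are descriptions only. Searched on both strands, it began 72 bases before the Chgb start. It was in 3 of the 8 member windows held in the RefSeq table, against 1.79% of all windows. The other 2 were Scg2, 68 bases before its start, and Pcsk1, 78 bases before the start that its window uses, and neither of those genes had a site. The Pcsk1 window uses a start 437 bases after the first base of the annotated gene span, so the element lies 359 bases inside that span, not before it. The Scg3 window likewise uses a start inside the span, 1903 bases after its first base, and in the other 6 windows the start is the first base of the span. The surroundings of the element are shown to let the 3 windows be compared, each 30 bases on the strand of its gene with TGACGTCA in capitals, at chr2:132781559-132781588 (plus strand), chr1:79440076-79440105 (minus strand) and chr13:75089768-75089797 (plus strand).
Chgb element: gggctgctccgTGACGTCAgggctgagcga
Scg2 element: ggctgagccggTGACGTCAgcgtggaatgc
Pcsk1 element: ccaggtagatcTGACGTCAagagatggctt
The shorter TGACGT, which lies inside TGACGTCA, was on either strand of 5 of the 8 member windows and of 7.51% of all windows. Beyond those 3 genes it was found at Chga, 44 bases before the start, and at Scg5, 175 bases before it. Ins2 and Cpe had no window in the table.

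Chgb, the granin chromogranin B, had 3 sites, where 18.2% of genes with a site had 3 or more. The site over the gene start had a fold of 21.38 and a deposited score of 3208.2, which is -10 times the log10 of the caller's p. That was the largest score printed in the list, where 119 sites share the value 3100 and 4 lie above it. Whether 3100 is a ceiling is not stated, so the score does not rank this site by p against those 119. Its deposited false discovery rate was 33.33%, above the 27.16% of the sites at 3100, and its fold lay at percentile 96.6 of all sites.

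The next Chgb site lay at chr2:132786453-132786546, bases 4812 to 4905 of a gene that spans 13438 bases. It was 94 bases long, with a fold of 8.83, a score of 1475.94 and a false discovery rate of 45.15%. The last site, at chr2:132792330-132794095, was 1766 bases long and ran from base 10689 to base 12454, ending 984 bases before the end of the gene. Its fold was 9.68, its score 3100 and its rate 27.16%. Only 344 sites in the list were as long or longer. The Chgb sites therefore combined a stretch of high fold at the gene start with a long stretch of lower fold near the end. The scores of these stretches do not rank them by p, since 3100 may be a ceiling.

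In all, the 3 sites covered 2249 bases, a length equal to 16.7% of the gene span. With 2.23 sites per 10 kb of span, Chgb lay at percentile 92.4 of the protein-coding genes with a site. The caller numbered its peaks in genome order, and the 3 Chgb sites had consecutive numbers, so 0 unlisted peaks lay between them.

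Sites that start so far upstream were rare among those that overlap their gene. Counted were the 7197 sites that overlapped the span of their gene, where its strand was known. Sites wholly outside their gene were left out. Of the 7197, 276 (3.83%) began before the first base of their gene. In all, 24 of the 7197 (0.333%) began 200 or more bases before it. The median fold of those 24 sites was 9.55, and 3 of them, Chgb included, had a fold at least as large as 21.38. In the RefSeq annotation, 0 other genes overlapped the span of Chgb or this site, so the upstream bases belong to no other annotated gene.

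Chga, the granin chromogranin A, had 1 site with the largest fold of the 10 genes. The site lay at chr12:102562598-102563073, bases 7658 to 8133 of a span of 10087 bases, and ended 1954 bases before the end of the gene. It was 476 bases long, with a fold of 27.48, a score of 3100 and a false discovery rate of 27.16%. The fold placed Chga at percentile 97.3 of genes with a site. The score of 3100 was shared by 119 sites, the long Chgb site among them, and only 4 sites scored higher, so the score does not rank Chga among those 119.

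Scg5 had 1 site, and it was very short. It covered 54 bases at chr2:113780634-113780687 on a gene of the minus strand that spans 52779 bases. These were bases 48405 to 48458 of the gene, 4321 bases before its end. The fold was 18.1, the score 2715.67 and the false discovery rate 30.2%. Only 116 sites in the list were this short or shorter, yet 150 of 8987 sites had a higher score. Scg5 lay at percentile 91.5 of genes by fold and at 97.2 by score.

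**Figure D1:**
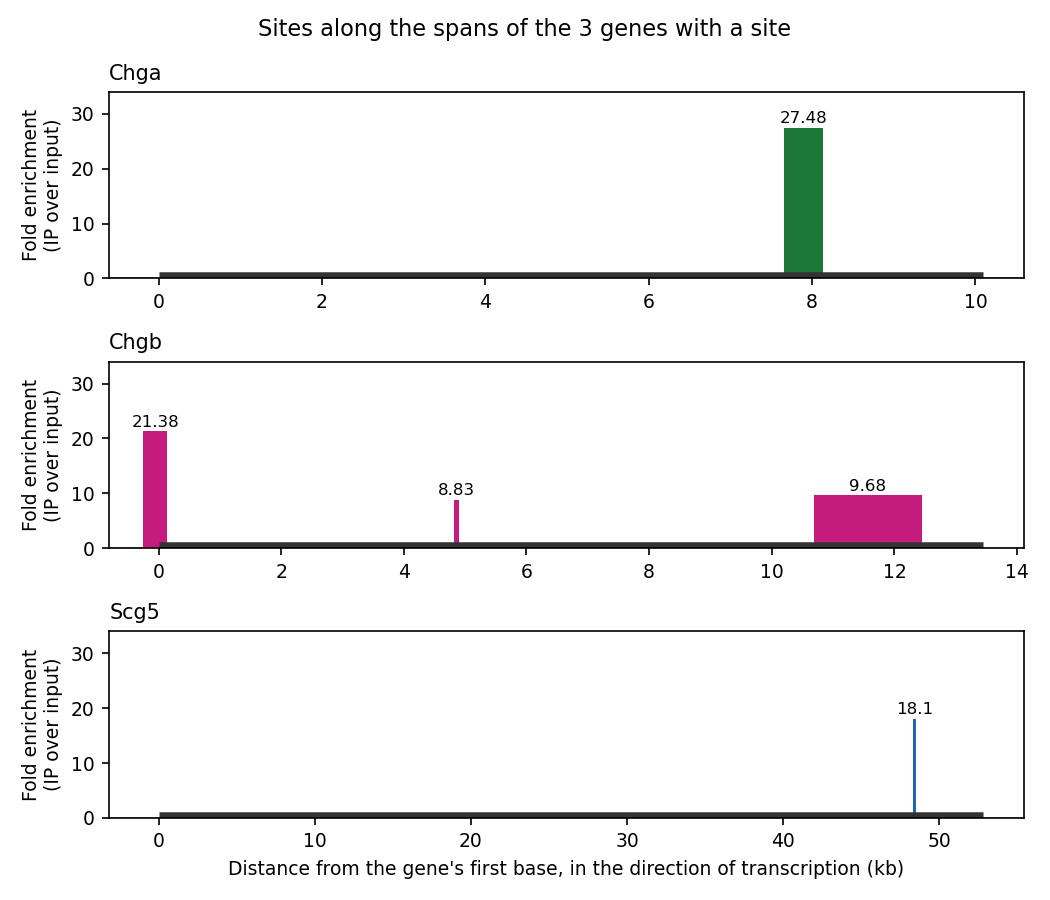
Fold enrichment (linear axis, starting at 0) of each site against the distance in kb from the first base of Chga, Chgb and Scg5, in the direction of transcription. Colored bars are sites, widened to be visible where a site is very short, and the dark line is the gene span; the first Chgb bar begins 248 bases before the gene, and the bars of Chga and Scg5 end 1954 and 4321 bases before the end of their genes.

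The positions of the 5 sites can be set against those of all 7197 sites that overlapped a gene of known strand. The middle of a site fell in the first 20% of the gene span for 31.2% of them and in the last 20% for 23.7%. Middles before the first base were counted in the first 20%, and middles past the last base in the last 20%. The middles of the Scg5 site and of the long Chgb site lay at 91.8% and 86.1% of the span, both in the last 20%. The Chga site lay at 78.3% and the short Chgb site at 36.2%. The middle of the first Chgb site lay just before the first base, so that site was counted in the first 20%. Whether the sites fall on exons, introns or untranslated regions was not analysed here, since only gene spans were used.

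All 5 sites had a false discovery rate below 50%, between 27.16% and 45.15%. In the whole list 437 sites (4.86%) were below 50%, and 6677 had a rate of 100%. Of the 10 genes, 3 thus kept a site at this limit, beside 1.61% of all protein-coding genes. The same 3 of 10 kept one with a fold of at least 5 (19.7% of all protein-coding genes). They also did with a p of at most 1e-10 (15.4%) and with a rate below 100% (7.29%). The shares of all genes were not limited to genes with RNA in the islets, so they are not a like-for-like background. None of the 5 sites was below 27.16%, the lowest rate in the list, so none would pass the limits that are usual for such rates. The deposited scores of the 5 sites ran from 1475.94 to 3208.2, against a list median of 132.33, and 358 sites scored at least as high as the lowest of them. The 5 sites thus all lay among the 358 sites with the highest scores, and their lengths ran from 54 to 1766 bases.

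**Figure D2:**
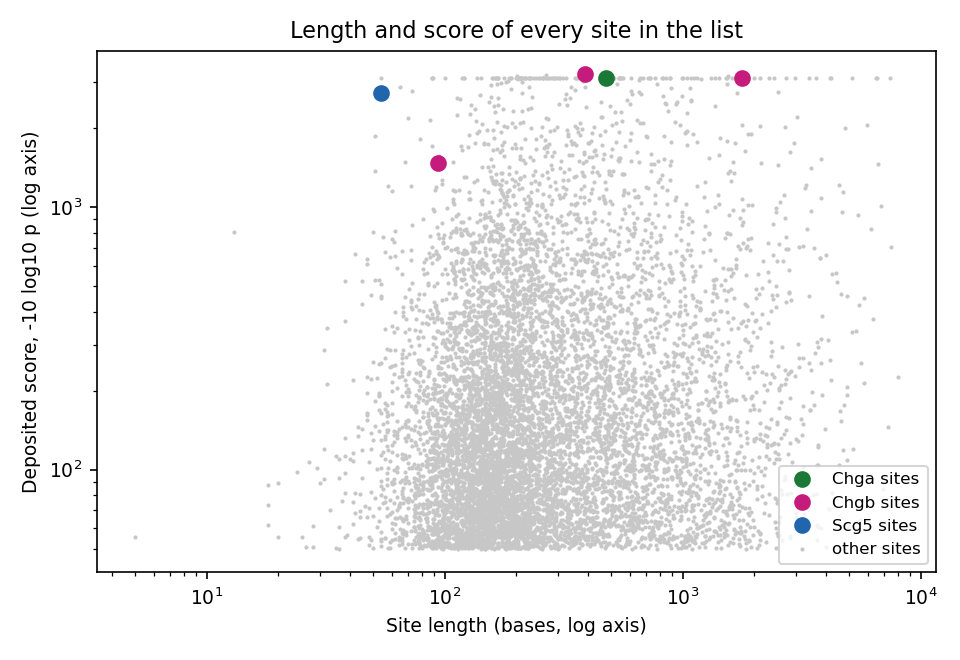
Length in bases and deposited score of every site, both on log axes, with the sites of Chga, Chgb and Scg5 as large points and all other sites as small grey points. The 5 large points lie between scores of 1475.94 and 3208.2, near or on the line of 119 sites that share a score of 3100, and spread over lengths from 54 to 1766 bases.

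Neither insulin gene had a site. Mice have both Ins1 and Ins2, and each encodes a complete preproinsulin. Ins1 spans 719 bases at chr19:52264297-52265015 and Ins2 spans 1071 bases at chr7:142678656-142679726. No site of any other gene name overlapped either span. The nearest listed site was 726.2 kb from Ins1 and 100.5 kb from Ins2. Both genes belong to the shortest of 10 equal groups of protein-coding genes by span, in which 45 of 2190 genes (2.05%) had a site.

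The unlisted peaks set a bound on what the list may leave out. The caller's peak numbers ran up to 90659, of which the 8987 listed sites are 9.91%. Between the listed sites on either side of Ins1, 2313 kb apart, 9 peak numbers were not listed. Between those around Ins2, 881.6 kb apart, 23 were not listed. An unlisted peak on either gene can be neither shown nor dismissed with these numbers.

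Scg2 and Scg3 had no site either. Scg2, secretogranin II, spans 5661 bases at chr1:79434366-79440026, and Scg3, a granin that binds Chga and links it to the granule membrane, spans 42594 bases at chr9:75643366-75685959. The shares of genes with a site in their groups by span were 10.5% and 32.6%. Chga and Chgb, with spans between those of Scg2 and Scg3, belong to groups with shares of 15.1% and 20.4%. Chga and Chgb thus had a site and Scg2 and Scg3 had none, with Scg5, which also had a site, not counted here. These are too few genes for a result about granins.

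The processing enzymes had long spans and no site. Pcsk1, the convertase that starts the cutting of proinsulin, spans 45442 bases at chr13:75089420-75134861. Pcsk2 spans 270152 bases at chr2:143546133-143816284, and Cpe 100568 bases at chr8:64592542-64693109. In their groups by span, 32.6%, 39.9% and 42.1% of genes had a site, for Pcsk1, Cpe and Pcsk2 in that order. Scg5, the partner of Pcsk2, is in the same group as Pcsk1. Between the nearest listed sites on both sides, 19 peak numbers were unlisted around Pcsk1, 14 around Pcsk2, 70 around Cpe, 28 around Scg2 and 57 around Scg3.

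**Figure D3:**
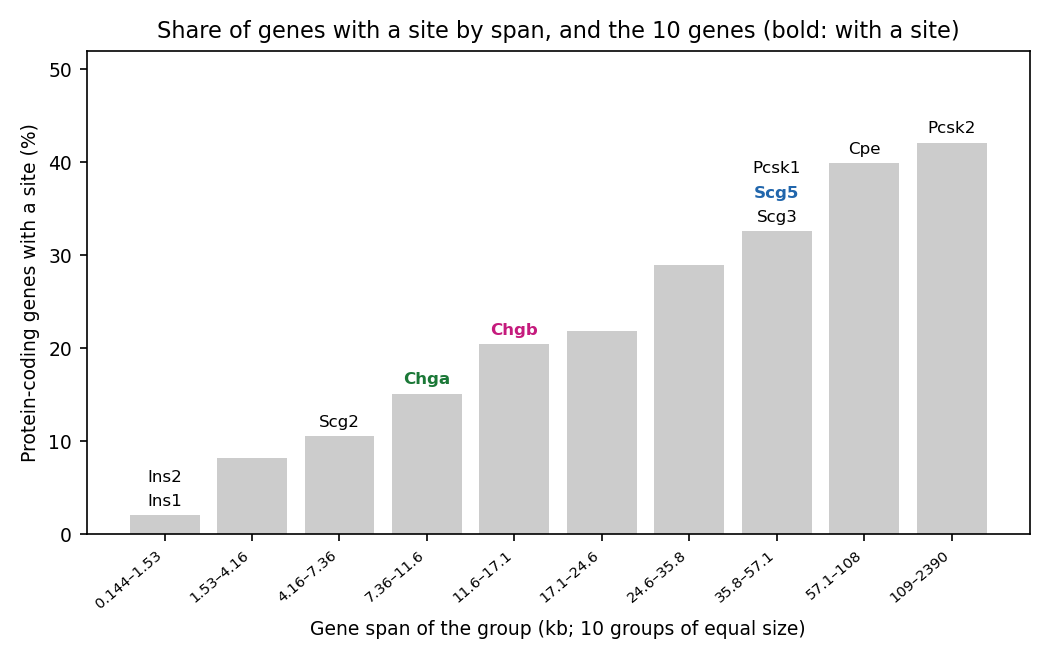
Percent of protein-coding genes with at least 1 site (bars, axis from 0) in 10 groups of 2190 genes ordered by gene span in kb, with the 10 genes written above the bar of their group at heights that carry no value. Bold names have a site; the bars run from 2.05% to 42.1%, with Ins1 and Ins2 in the shortest group and Pcsk2 in the longest.

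Other genes of the secretory granule and of prohormone processing had sites about as often but with smaller folds. Of 51 such genes, chosen by role, 16 (31.4%) had a site, beside 22.2% of all protein-coding genes. Their strongest folds ran from 3.17 to 11.18 with a median of 7.66, so 0 of the 16 reached the 18.1 of Scg5. A rate below 50% was found for 1 of the 16 genes, and 13 had a rate of 100% at every site.

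That 1 gene was Pcsk1n, which encodes proSAAS, an inhibitor of Pcsk1. It had 2 sites, a strongest fold of 8.61, a score of 3100 and a rate of 27.16%. Its fold lay at percentile 55.2 of genes with a site. Scg5 also encodes an inhibitor of a convertase and had a high score. Pcsk1n was singled out by its rate, and the convertases Furin, Pcsk6 and Pcsk7 had sites. The pair is therefore not a result about inhibitors and convertases. Among other cargo proteins, Vgf, a granin-like peptide precursor, had 1 site with a fold of 11.1 and a score of 864.65. Nucb2, the precursor of nesfatin, had 6 sites with a strongest fold of 11.12 and a score of 1073.71. The beta cell peptide Iapp and the hormone genes Sst and Gcg had no site.

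Of the 5 further convertases in the list of related genes, 3 had a site, and Pcsk4 and Pcsk5 had none. Furin, which cuts in the trans-Golgi network, had a fold of 7.35, Pcsk6 one of 6.81 and Pcsk7 one of 6.16, each at a single site with a rate of 100%. Cpd, a carboxypeptidase of the trans-Golgi network, had a fold of 3.17, and the carboxypeptidase Cpm one of 7.35. Pam, which amidates peptides, had no site, and neither had the granule membrane phosphatase-like proteins Ptprn and Ptprn2.

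Among genes of granule formation, transport and release some had a site and others none. Ccdc186, which acts in dense-core granule formation, had 5 sites with a strongest fold of 11.18, and Hid1, which acts in the same pathway, 1 site with a fold of 9.24. The zinc transporter Slc30a5 had a fold of 8.84, the release factor Cadps2 one of 8.44, Vps41 one of 7.84 and the islet autoantigen Ica1 one of 7.48. Cadps, Rab3a, Rab27a, Sytl4 and the zinc transporter of insulin granules, Slc30a8, had none. Npy and Sorcs1 had 7.35, the value also given for Furin and Cpm. That same fold occurred at 57 sites of the list.

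**Figure D4:**
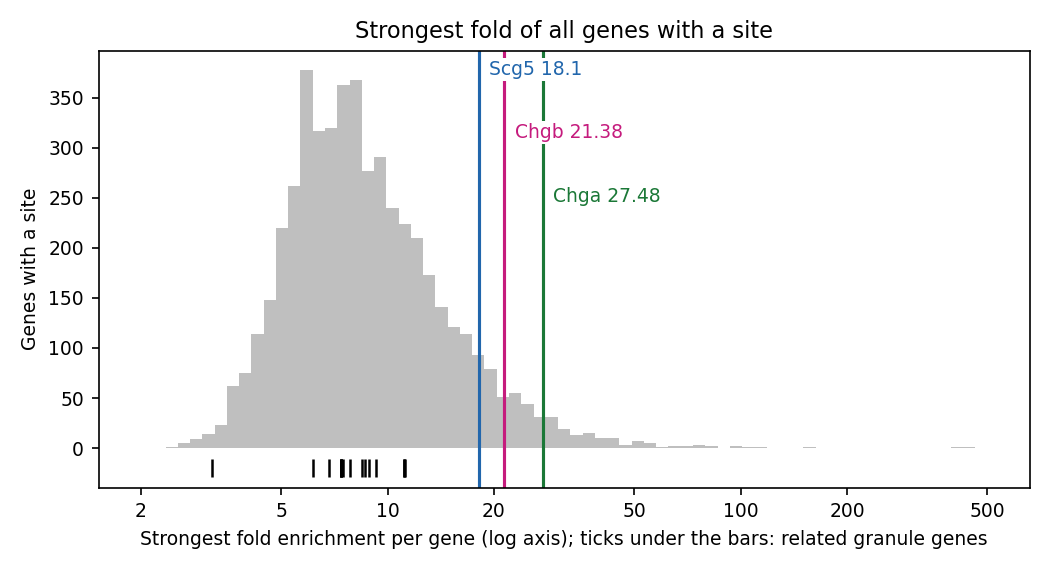
Number of genes by their strongest fold (log axis) over all 4953 genes with a site, as grey bars, with lines at the folds of Scg5, Chgb and Chga and short black ticks below for the 16 related granule genes with a site. The lines stand at 18.1, 21.38 and 27.48, right of every tick, the highest of which is at 11.18.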

How the data were processed

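Per the labels' protocols, the authors pulled down fragmented RNA with an m6A antibody, prepared libraries with a directional kit, used cutadapt 1.9.3 to trim the reads, HISAT2 2.0.4 to align them and MACS to find enriched sites, which their own scripts placed on transcripts; tool versions are per the submitters' processing notes. The protocol names human HG19 and the processing notes mm10. Of 8942 sites matched to a gene (8822 by gene identifier), 8924 (99.8%) overlapped its span in GRCm38.p6, so coordinates are GRCm38, with starts printed counted from 1.

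The deposited table holds, per site, a score that is -10 times the log10 of p, a linear fold ratio and a false discovery rate in percent, all from the authors' caller. These values were ranked within the list; none was recomputed, and no read depth could be had.

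Computed here with Python 3.11.15 and pandas 2.3.3 were each gene's number of sites and strongest fold, percentiles (ties at their middle rank), positions along gene spans, shares by span in 10 groups, and motif matches in RefSeq windows (250 bases before to 50 after a start; 8 of 10 genes had one). Gene matching, positions and strongest folds were tested on simulated sites. All 10 genes are named; of related genes, the 10 with the largest fold (with ties) and some picked by name, with others given for their role. The members and lists were chosen with earlier results of these data known, and the motifs after the sites were seen. Alternatives were limits on fold, p and rate, merged intervals, and other ranks and positions. With 1 library per group, no test was made.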

Additional observations from a re-analysis of the deposited data

How the results depend on the processing

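Limits of a fold of at least 5, a p of at most 1e-10, a false discovery rate below 100% and (added after seeing the data) below 50% left 3 member genes, 5 sites and a median strongest fold of 21.38 in place. The related genes with a site numbered 16 as deposited, 15 with the fold limit, 9 with the p limit, 3 below 100% and 1 below 50%; these limits keep fewer sites by construction, and all protein-coding genes with a site fell to 19.7%, 15.4%, 7.29% and 1.61%. Merging changed nothing, as no intervals overlapped, and the overlap with gene spans removed no member.

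With the median fold per gene, Chgb had 9.68 and the members' median was 18.1, since Chgb alone has several sites. By strongest fold, Chga, Chgb and Scg5 lay at percentiles 97.3, 94.2 and 91.5 of genes. Among all sites they lay at 98.4, 96.6 and 94.8, by strongest score (with 119 sites tied at 3100) at 98.8, 99.99 and 97.2, by median fold at 98.8, 76.2 and 96.5, and among genes with as many sites at 98.5, 89.6 and 96.1. In place of 0.991, 2.23 and 0.19 sites per 10 kb, the sites' lengths came to 4.72%, 16.7% and 0.102% of the spans of Chga, Chgb and Scg5. By the edge nearest to the 3′ end, the sites lay at 80.6% of the span for Chga, 91.8% for Scg5, and 1.04%, 36.5% and 92.7% for Chgb.

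No paired analysis was possible because each group has 1 library. Read depth is unknown, so no fold carries an error, and the input level of these genes was not analysed here.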

Other observations

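The authors' own annotation column gives another view of the granule genes. In it, 32 genes with a site were assigned to the secretory granule, among them Chga, Chgb and Scg5. By strongest fold, Chga ranked 2, Chgb 4 and Scg5 5 of the 32. The first was Gars, the glycyl-tRNA synthetase, with a fold of 55.68, and Actn1, an actin cross-linker, ranked 3 with 21.81. The median over the 29 genes other than the members was 8.4.

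By the number of sites and the nearest strongest fold, the genes most like Chga were Flywch1 (27.71) and Mfsd14a (27.04), among 2958 genes with 1 site. Those most like Chgb were Nol12 (21.29) and 1500009L16Rik (21.55), among 448 genes with 3 sites, and those most like Scg5 were Dvl1 (18.13) and Faf2 (18.03), with 1 site each. Their scores, from 531.56 for Dvl1 to 1562.49 for Mfsd14a, were all below those of the member they resemble.

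Around Chga, the 8 unlisted peak numbers all fell between the listed site of Golga5 and the Chga site, and 0 fell between Chga and the next listed site, on Itpk1. Around Scg5, 28 fell between the site of Aven and that of Scg5 in genome order, and 2 between Scg5 and Arhgap11a.

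A list of sites can show which marker genes carry one, not how much of each cell type the islets held. Of 9 beta cell markers 1 had a site (Mafa), of 2 delta cell markers 0 and of 1 PP cell marker 0. Of markers of other cells, a site was found on 4 of 5 for duct, 4 of 4 for endothelium, 2 of 7 for acinar cells, 1 of 4 for fibroblasts, 0 of 3 for leukocytes and 1 of 4 for neural and glial cells, beside 22.2% of all protein-coding genes.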
